A study of Mus musculus with 18 samples.

Results

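Transcript levels of 6 genes of zinc handling were followed through early mouse embryos: the metallothioneins Mt1 and Mt2, the metal sensor Mtf1, the zinc exporter Slc30a1 and the zinc importers Slc39a6 and Slc39a10. These 6 genes of the 55098 with an unambiguous symbol were found by symbol in all 18 libraries, and all 6 passed the filter on low values in both experiments. The 6 were chosen by name after their FPKM values in the siRNA and treatment comparisons were already known, so their levels and differences are described here and carry no p-value. The study, on histone crotonylation, made Smart-seq2 libraries, a full-length protocol for polyadenylated RNA, from tubes of 5 to 10 embryos. In its siRNA experiment embryos with an siRNA against Echs1 (siEchs1) and embryos with a control siRNA (siCon) were set against each other at the stages E2C and L2C of the labels, in 4 groups of 3 libraries, and no strain or genotype was stated for them. In its treatment experiment zygotes of genotype WT were given sodium crotonate, sodium acetate or, as the control, DMSO, and early 2-cell embryos (E2C) were taken from each, in 3 groups of 2 libraries. The labels state neither doses nor ages, do not spell out L2C, and do not say whether replicates came from separate cultures or matings, so the p-values given below for other genes measure only the spread between these samples.

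Metallothioneins are small cysteine-rich proteins that bind zinc and copper. MTF1, a zinc-finger transcription factor, senses free zinc and activates Mt1, Mt2 and Slc30a1 through metal response elements, short DNA motifs searched for here by the letters TGCACNC and TGCGCNC. SLC30 proteins (ZnT) move zinc out of the cytosol and SLC39 proteins (ZIP) move it in. The mouse egg takes up zinc during maturation and releases part of it at fertilization.

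The regulatory sequences of the genes that MTF1 is known to act on are shown first, since Mt1, Mt2 and Slc30a1 are the members whose levels differed most between siEchs1 and siCon embryos at L2C. The sequence is RefSeq's for GRCm38.p6, 250 bases before the annotated start, printed 5′ to 3′ on the strand of the gene, and capitals mark matches to TGCACNC or TGCGCNC on either strand. No matches overlapped.
Mt2, chr8:94172368-94172617, plus strand: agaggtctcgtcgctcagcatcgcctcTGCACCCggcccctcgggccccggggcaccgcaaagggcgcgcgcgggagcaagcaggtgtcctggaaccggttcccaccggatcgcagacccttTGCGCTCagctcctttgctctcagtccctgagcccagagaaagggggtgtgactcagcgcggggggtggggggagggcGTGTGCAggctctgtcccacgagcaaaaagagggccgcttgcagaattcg
Mt1, chr8:94178839-94179088, plus strand: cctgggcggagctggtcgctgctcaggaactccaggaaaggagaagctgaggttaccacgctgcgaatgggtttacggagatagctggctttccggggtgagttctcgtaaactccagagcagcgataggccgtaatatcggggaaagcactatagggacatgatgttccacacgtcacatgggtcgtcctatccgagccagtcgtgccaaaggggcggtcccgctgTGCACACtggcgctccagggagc
Slc30a1, chr1:191906531-191906780, plus strand: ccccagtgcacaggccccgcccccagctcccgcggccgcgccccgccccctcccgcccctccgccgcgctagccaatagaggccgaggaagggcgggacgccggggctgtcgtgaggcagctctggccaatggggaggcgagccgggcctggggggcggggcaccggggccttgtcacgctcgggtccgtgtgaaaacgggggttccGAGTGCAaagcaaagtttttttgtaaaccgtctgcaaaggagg
The Mt2 window held 3 matches, at -223, -128 and -50 from the start, a number reached by 0.77% of the 32851 windows of all genes. The Mt1 window held 1 match at -23 and the Slc30a1 window 1 at -43, as many as 21.4% of windows held. G and C made up 67.6% of the bases of the Mt2 window, 58.8% of Mt1 and 71.2% of Slc30a1. The median of all windows was 52.4%, and the shares were not matched for base composition. Mtf1 and Slc39a10 had windows too, with 0 matches in each, which says only that these letters are not in those windows.

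The annotated starts of Mt1 and Mt2 differ between RefSeq and GENCODE, so the first 150 bases of the first GENCODE transcript were searched for the same letters. Mt1 had 4 matches there, a number reached by 0.0283% of 21227 protein-coding genes, and Mt2 had 3, a number reached by 0.278%. Slc30a1 had 1 match, a number reached by 16.5%, and Mtf1 and Slc39a10 had 0. These shares were not matched for base composition either. The matches of both metallothioneins are shown with 5 bases on each side and with the transcript base at which the motif begins.
Mt1, base 10: agctcTGCACTCcgccc
Mt1, base 28: aaaagTGCGCTCggctc
Mt1, base 92: ctgctGGGTGCAaaccc
Mt1, base 106: cccttTGCGCCCggact
Mt2, base 13: agggcGTGTGCAggcgg
Mt2, base 32: ggggcGCGTGCAtggtg
Mt2, base 66: gctttTGCGCTCgaccc
Over both searches together Mt2 had 6 matches, Mt1 5 and Slc30a1 2. The 2 searches overlapped for Mt1 and Slc30a1. For Mt2 the window ended at 94172617 and the transcript starts at 94172664, so the bases between were in neither search. The totals therefore come from unequal stretches of sequence. The starts are those of the annotations, and which start the embryos used was not tested. Whether a match lies in the promoter or in the transcript is therefore not settled by these positions. Of the other 23 SLC30, SLC39 and metallothionein genes, 20 had a RefSeq window and 10 of these had at least 1 match. The share was 23.8% for all genes with a window, again not matched for base composition.

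**Figure D1:**
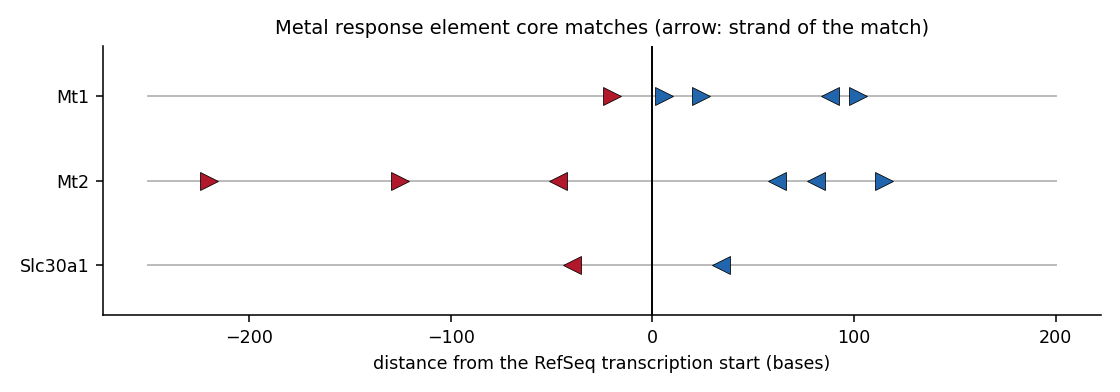
Positions of matches to TGCACNC and TGCGCNC in Mt1, Mt2 and Slc30a1, in bases from the RefSeq start (x axis), with arrows for the strand of the match, red before the start and blue after it. Mt2 has 6 matches spread over both sides of the annotated start, Mt1 has 5 between -23 and 99, and Slc30a1 has 2. A stretch just after the RefSeq start of Mt2 was not searched. Which start the embryos used was not tested.

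Mt2 and Mt1 lie side by side on the plus strand of chromosome 8, Mt2 at 94172664 to 94173568 and Mt1 at 94179082 to 94180327 (GRCm38, GENCODE), 5513 bp apart with 0 annotated genes between them. Their identifiers in the files are ENSMUSG00000031762.7 for Mt2 and ENSMUSG00000031765.8 for Mt1. The longest stretch that their transcripts share is 20 nt, against reads of 150 nt. Slc30a1 lies on chromosome 1 at 191906767 to 191913247, Slc39a10 on chromosome 1 at 46807544 to 46892852, Mtf1 on chromosome 4 at 124802104 to 124849800, and Slc39a6 on chromosome 18. The libraries keep no strand, so reads of Mt2 and of its antisense gene Gm45774 cannot be told apart, nor can those of Slc30a1 and 1700034H15Rik, Mtf1 and 1110065P20Rik, or Slc39a6 and Elp2. On their own strand Slc39a10 overlaps the annotated genes Gm28151 and Gm37393, and Mtf1 overlaps n-R5s192.

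Values are FPKM, fragments scaled by exon length and by all fragments of the library, which give a share of a library: fewer cells of a kind and less RNA per embryo cannot be told apart. The sum of FPKM was 708113 to 1123990 per library, and 11982 to 16638 genes reached 1 FPKM. Echs1, the siRNA target, stood at 0.71 to 5.88 FPKM in the 6 siEchs1 libraries and at 24.4 to 42.6 FPKM in the 12 others. Its log2 difference was -3.19 at L2C (limma, adjusted p = 0.000435) and -3.02 at E2C (limma, adjusted p = 0.00252). Library 3 of siEchs1 E2C stood apart, with Spearman correlations of 0.668 and 0.718 with libraries 1 and 2 of its group, where all other pairs of replicates reached 0.848 to 0.937. Summed oocyte markers (all 6 detected) were 9545 to 13784 FPKM in siEchs1 L2C and 499.7 to 707 FPKM in siCon L2C, and 6795, 10436 and 1352 FPKM in siEchs1 E2C libraries 1, 2 and 3 against 1015 to 1303 FPKM in siCon E2C. Summed 2-cell markers, of which all 6 were detected, were 58.1 to 127 FPKM in siEchs1 L2C and 439 to 498 FPKM in siCon L2C, and 221 to 401 FPKM in siEchs1 E2C and 869 to 1026 FPKM in siCon E2C. Of 7 blood markers 3 reached 1 FPKM in a siRNA library. Blood marker sums were 3.43 to 18.7 FPKM in siEchs1 L2C and 90.5 to 125 FPKM in siCon L2C, and 2.74 to 10.5 FPKM in siEchs1 E2C and 59.7 to 77.8 FPKM in siCon E2C. Mitochondrial transcripts took 0.831 to 2.27% of FPKM in siEchs1 L2C and 7.58 to 11.2% in siCon L2C, and 1.69 to 10.3% in siEchs1 E2C and 13.1 to 17.0% in siCon E2C. These marker sums moved with the siRNA groups, and their part in the differences below was not tested. Cumulus, sperm and oviduct markers summed to at most 9.67, 72.2 and 3.09 FPKM in any siRNA library.

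At L2C both metallothioneins were far lower in siEchs1 embryos. Mt1 stood at 38.7, 77.5 and 24.4 FPKM in siEchs1 L2C libraries 1, 2 and 3, against 892, 1327 and 2715 FPKM in siCon L2C. Its means were 46.9 ± 27.5 FPKM in siEchs1 and 1645 ± 952 FPKM in siCon (SD, n = 3 each), a siCon mean 35.1 times the siEchs1 mean. Every siEchs1 library lay below every siCon library, and the 3 siCon libraries themselves spread over a wide range. The log2 difference was -5.10 ± 0.81 (SE) on the log2(FPKM + 1) scale, which understates differences of genes with low values. Mt2 had 17.6, 31.9 and 12.7 FPKM in siEchs1 L2C, against 308, 478 and 834 FPKM in siCon L2C. That gave means of 20.7 ± 9.98 FPKM in siEchs1 and 540 ± 268 FPKM in siCon (SD, n = 3 each), a siCon mean 26.1 times as high, and a log2 difference of -4.62 ± 0.55 (SE). The order of the libraries was the same for both genes in each group: library 2 was highest and library 3 lowest in siEchs1, and library 3 was highest and library 1 lowest in siCon.

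Ranked by FPKM among all genes of a library, Mt1 was number 3591, 1938 and 4598 in siEchs1 L2C and number 80, 61 and 24 in siCon L2C. Mt2 was number 5802, 3998 and 6444 in siEchs1 L2C and number 317, 185 and 110 in siCon L2C. In siCon L2C embryos Mt1 was thus among the 80 transcripts with the highest FPKM in each library. Their FPKM together came to 56.3, 109.4 and 37.1 in siEchs1 L2C, against 1200.3, 1805 and 3549 in siCon L2C.

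At E2C the same pair was lower in siEchs1 embryos too, with more spread. Mt1 stood at 22.4, 37.0 and 201.5 FPKM in siEchs1 E2C libraries 1, 2 and 3, against 203.8, 819.7 and 1090.2 FPKM in siCon E2C. The groups came close, since siEchs1 library 3, the library that stood apart above, was just under siCon library 1. Mean Mt1 was 87.0 ± 99.4 FPKM in siEchs1 and 705 ± 454 FPKM in siCon (SD, n = 3 each), with a log2 difference of -3.33 ± 0.81 (SE), and of -4.25 without siEchs1 E2C library 3. Mt2 had 24.1, 39.95 and 107.2 FPKM in siEchs1 E2C, against 265.8, 518 and 492 FPKM in siCon E2C. Its means were 57.1 ± 44.2 FPKM in siEchs1 and 425 ± 139 FPKM in siCon (SD, n = 3 each), with a log2 difference of -3.09 ± 0.55 (SE), and of -3.67 without siEchs1 E2C library 3. In siEchs1 E2C library 3 oocyte and 2-cell marker sums also lay nearer to siCon E2C than in libraries 1 and 2.

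The ratio of the paralogs is given per library as well. Which gene length entered the FPKM is not known, and annotated exons span 1246 nt for Mt1 and 588 nt for Mt2. The ratios are therefore compared between libraries and not read as relative abundance of the paralogs. Mt1 divided by Mt2, in FPKM, was 2.20, 2.43 and 1.92 in siEchs1 L2C and 2.90, 2.77 and 3.26 in siCon L2C. At E2C it was 0.932, 0.927 and 1.88 in siEchs1 and 0.767, 1.58 and 2.22 in siCon. The L2C ratios did not overlap between siEchs1 and siCon, while the E2C ratios did. In the treated early 2-cell embryos it was 1.46 and 1.12 with crotonate, 0.508 and 0.924 with acetate, and 1.02 and 0.576 with DMSO.

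**Figure D2:**
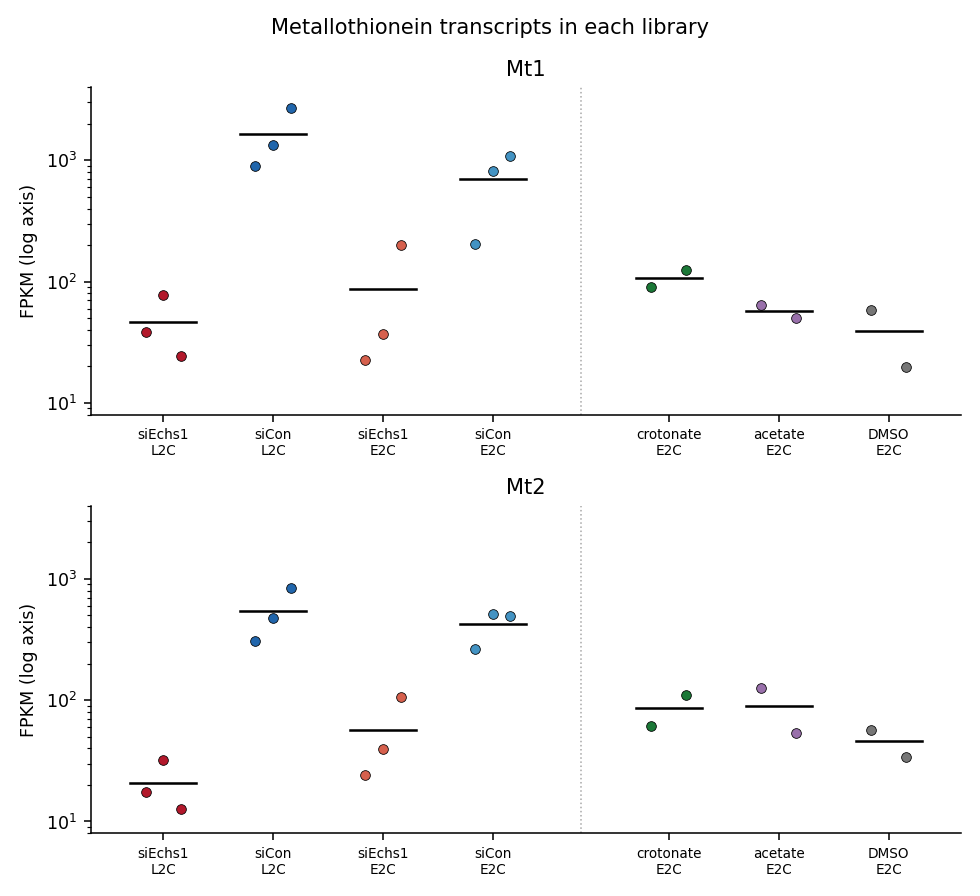
Mt1 and Mt2 in each of the 18 libraries, in FPKM on a log axis, by group; each point is a library and the line is the group mean. For Mt1 all 3 siEchs1 L2C libraries are at 77.5 FPKM or below, and all 3 siCon L2C libraries at 892 FPKM or above.

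Slc30a1 encodes ZnT1, the plasma membrane protein that exports zinc from cells. It had 8.69, 3.16 and 3.42 FPKM in siEchs1 L2C, against 47.5, 29.2 and 41.4 FPKM in siCon L2C, so the groups lay well apart. Its L2C means were 5.09 ± 3.12 FPKM in siEchs1 and 39.4 ± 9.33 FPKM in siCon (SD, n = 3 each), and the log2 difference was -2.82 ± 0.38 (SE). At E2C it was low in both groups, with 4.11, 2.77 and 5.26 FPKM in siEchs1 and 2.58, 3.24 and 2.77 FPKM in siCon, and the libraries overlapped. The E2C log2 difference was 0.36 ± 0.38 (SE). The siEchs1 effect at L2C minus that at E2C came to -3.17 ± 0.54 (SE) for Slc30a1, against -1.77 ± 1.15 for Mt1 and -1.53 ± 0.78 for Mt2. Without siEchs1 E2C library 3 the values for Mt1 and Mt2 were -0.85 and -0.94. For Slc30a1, then, a difference between siRNA groups was seen at L2C, and for the metallothioneins at both stages. At 2.58 to 3.24 FPKM in siCon E2C, Slc30a1 could not have fallen there by as much as at L2C on this scale. Its values therefore cannot tell whether the siEchs1 effect is confined to L2C.

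Transcripts of Mtf1, the gene of the sensor, were not lower in siEchs1 embryos at L2C, which does not show the amount or activity of its protein. Mtf1 had 144.9, 135.4 and 128.9 FPKM in siEchs1 L2C, against 100.3, 117.4 and 77.2 FPKM in siCon L2C. Every siEchs1 library lay above every siCon library. The L2C log2 difference was 0.49 ± 0.31 (SE). At E2C it had 212.5, 152.5 and 107.9 FPKM in siEchs1 and 117.4, 144.7 and 131.1 FPKM in siCon, which overlapped. Its E2C log2 difference of 0.22 ± 0.31 (SE) became -0.03 without siEchs1 E2C library 1. In all 18 libraries Mtf1 stayed between 77.2 and 212.5 FPKM, a narrower range than that of Mt1, which spanned 19.7 to 2715 FPKM.

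The importers are ZIP6 (Slc39a6) and ZIP10 (Slc39a10), related plasma membrane proteins that are known to bring zinc into the maturing mouse oocyte. Slc39a6 was higher in siEchs1 embryos at both stages. It had 63.6, 78.2 and 80.5 FPKM in siEchs1 L2C, against 57.5, 40.1 and 27.0 FPKM in siCon L2C, and 47.6, 56.9 and 126.2 FPKM in siEchs1 E2C, against 25.0, 25.3 and 24.8 FPKM in siCon E2C. The groups did not overlap at either stage, and the 3 siCon E2C libraries lay close together. Its log2 difference was 0.88 ± 0.39 (SE) at L2C and 1.45 ± 0.39 (SE) at E2C, and 1.03 at E2C without siEchs1 E2C library 3.

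Slc39a10 showed no such separation. It had 44.4, 86.7 and 94.7 FPKM in siEchs1 L2C, against 55.4, 35.1 and 33.7 FPKM in siCon L2C, where siEchs1 library 1 fell among the siCon values. At E2C it had 118.9, 68.9 and 98.0 FPKM in siEchs1 and 119.7, 98.1 and 113.3 FPKM in siCon, which overlapped. Its log2 difference was 0.81 ± 0.36 (SE) at L2C and -0.24 ± 0.36 (SE) at E2C, the second of which was 0.03 when FPKM were rescaled without mitochondrial and ribosomal RNA. Both importers summed to 107.9, 164.9 and 175.2 FPKM in siEchs1 L2C and 112.8, 75.2 and 60.6 FPKM in siCon L2C.

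**Figure D3:**
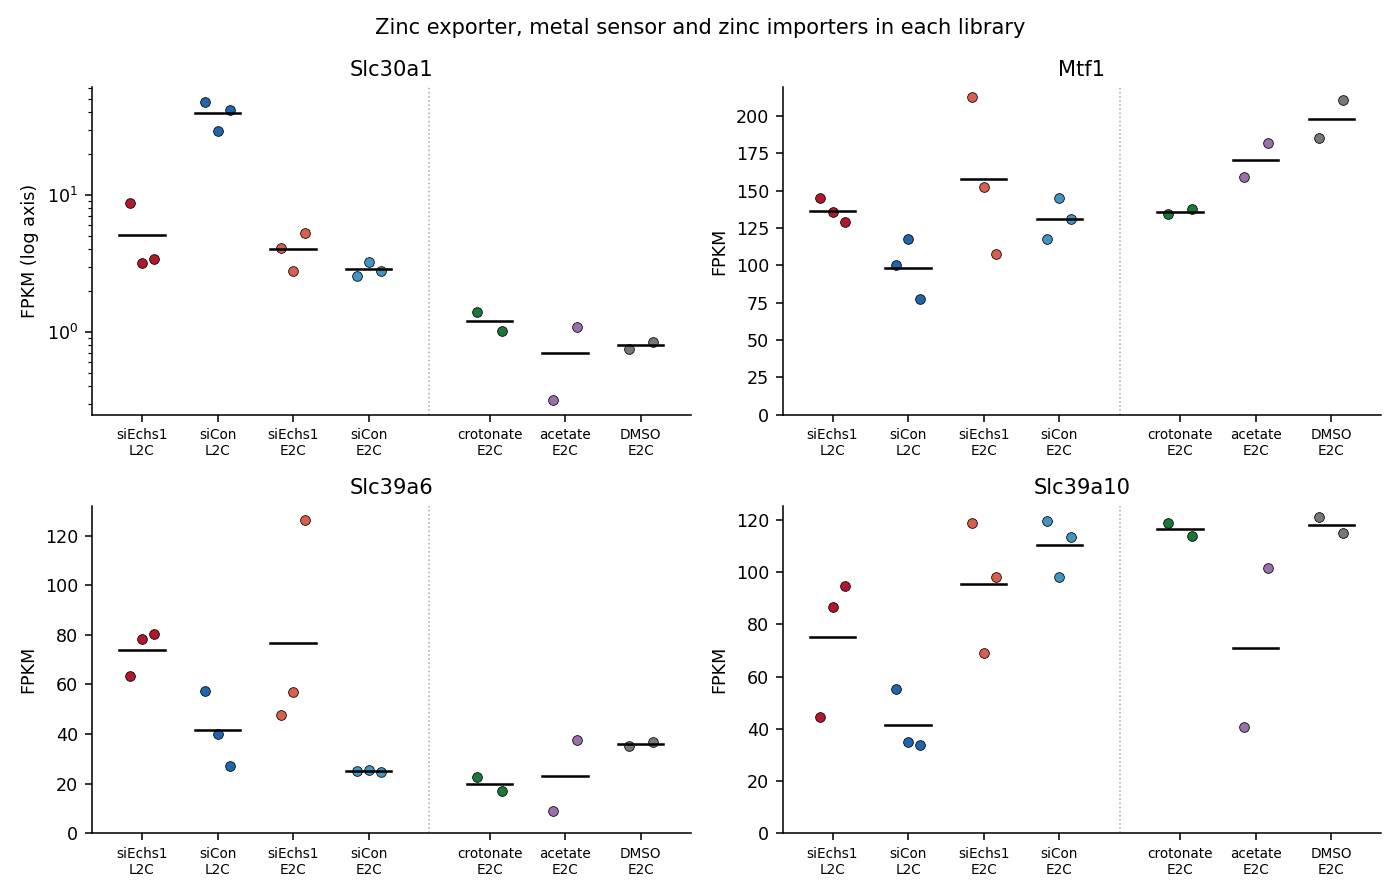
Slc30a1 (log axis), Mtf1, Slc39a6 and Slc39a10 (linear axes) in each library, in FPKM, by group; points are libraries and lines are group means. Slc30a1 is at 8.69 FPKM or less in the siEchs1 L2C libraries and in every other group, and at 29.2 FPKM or more in the siCon L2C libraries.

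Counted over the 6 genes, siEchs1 and siCon libraries did not overlap at L2C for 5, of which Mt1, Mt2 and Slc30a1 were lower and Mtf1 and Slc39a6 higher. The same held for 63.1% of all genes tested in that comparison. At E2C they did not overlap for 3, with Mt1 and Mt2 lower and Slc39a6 higher, against 34.5% of all genes. The members were chosen with these comparisons known, so nothing is read from their counts against those shares.

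The difference between L2C and E2C in control embryos varied with the gene. In siCon, Slc30a1 averaged 39.4 ± 9.33 FPKM at L2C and 2.86 ± 0.340 FPKM at E2C (SD, n = 3 each), 13.8 times as much, with a log2 difference of 3.36 ± 0.38 (SE) and no overlap. Slc39a6 was higher at L2C as well, with 41.5 ± 15.3 FPKM against 25.03 ± 0.262 FPKM at E2C and a log2 difference of 0.64. Slc39a10 was lower at L2C, with 41.4 ± 12.1 FPKM against 110.4 ± 11.1 FPKM at E2C and a log2 difference of -1.43 ± 0.36 (SE). Mtf1 was lower too, with 98.3 ± 20.2 FPKM against 131 ± 13.7 FPKM at E2C and a log2 difference of -0.43. Mt1 and Mt2 overlapped between the stages, with log2 differences of 1.38 ± 0.81 and 0.29 ± 0.55 (SE). Leaving out siCon E2C library 1 gave 0.64 for Mt1, and leaving out siCon L2C library 3 gave -0.09 for Mt2. The median of all genes in this comparison was 0.51, and -0.01 after quantile normalization, where the differences were 2.82 for Slc30a1, 0.08 for Slc39a6, -1.77 for Slc39a10, -0.59 for Mtf1, 1.90 for Mt1 and 0.75 for Mt2. Among the 6 genes 4 did not overlap, and among all genes 63.8% did not.

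In siEchs1 embryos the stages overlapped for all 6 genes. For all genes tested, 31.0% did not overlap. Slc30a1 averaged 5.09 ± 3.12 FPKM at L2C and 4.05 ± 1.25 FPKM at E2C (SD, n = 3 each), a log2 difference of 0.19, and -0.19 after quantile normalization. Slc39a10 averaged 75.3 ± 27.0 FPKM at L2C and 95.3 ± 25.1 FPKM at E2C, a log2 difference of -0.37. For Mt1 the log2 difference was -0.40 and for Mt2 -1.24, and without siEchs1 E2C library 3 these were 0.52 and -0.66. Mtf1 and Slc39a6 differed by -0.16 and 0.07. These stage comparisons share their libraries with the siRNA comparisons above.

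Ordered by mean FPKM over the 4 siRNA groups, Mt1 and Mt2 both ran siCon L2C, siCon E2C, siEchs1 E2C, siEchs1 L2C, and in both the only neighbours whose libraries did not overlap were siCon E2C and siEchs1 E2C. Slc30a1 ran siCon L2C, siEchs1 L2C, siEchs1 E2C, siCon E2C, with siCon L2C apart and the others overlapping in turn. Slc39a6 ran siEchs1 E2C, siEchs1 L2C, siCon L2C, siCon E2C, where the siEchs1 groups overlapped, siCon L2C was apart from siEchs1 L2C but overlapped with siEchs1 E2C, and siCon E2C was apart from siCon L2C. Slc39a10 ran siCon E2C, siEchs1 E2C, siEchs1 L2C, siCon L2C, and each neighbour overlapped with the next.

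**Figure D4:**
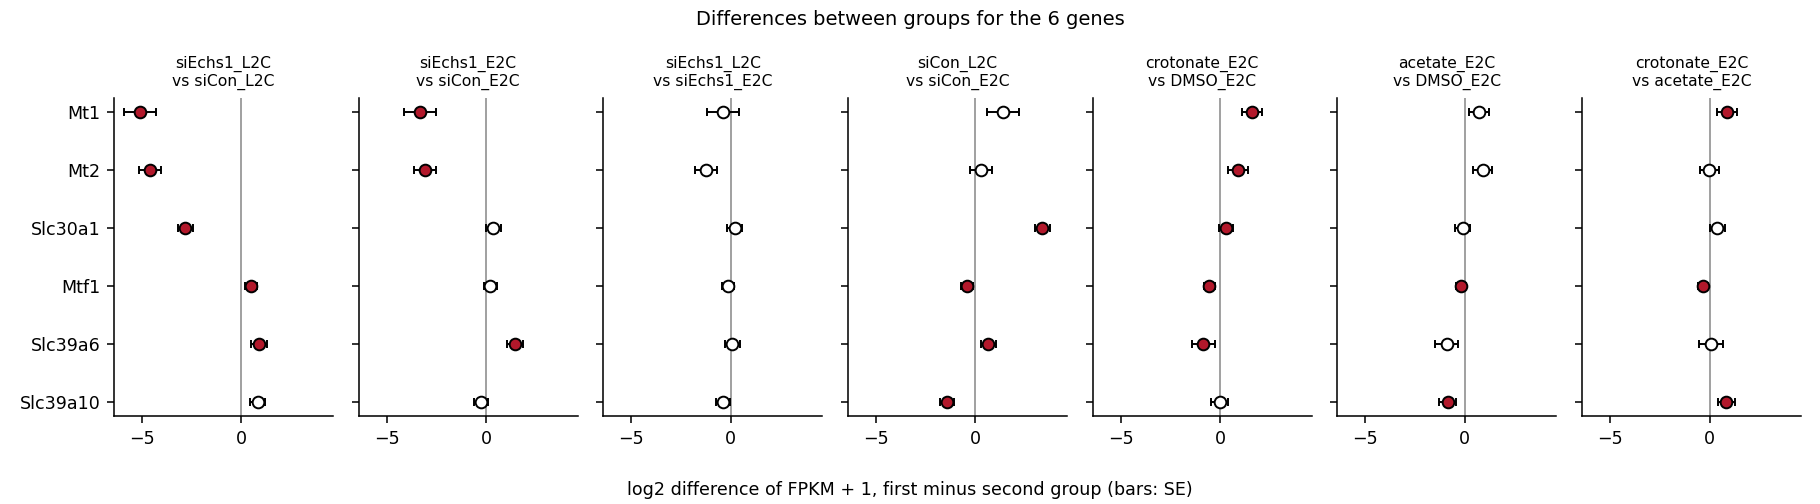
Log2 differences (log2(FPKM + 1) scale, ± SE) of the 6 genes in the 7 comparisons of groups; filled points mark comparisons in which the libraries of the groups do not overlap, open points those that overlap. Mt1 and Mt2 reach -5.10 and -4.62 for siEchs1 against siCon at L2C, and Slc30a1 differs in opposite directions for siEchs1 against siCon at L2C (-2.82) and for L2C against E2C in siCon (3.36).

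In the treatment experiment both metallothioneins were higher with crotonate than with DMSO, and Mt2 differed as much from DMSO with acetate. Crotonate is a short unsaturated carboxylate and acetate a shorter saturated one, and since no doses are stated their values stand side by side. Mt1 had 89.7 and 123.7 FPKM with crotonate, 64.1 and 49.9 FPKM with acetate, and 58.2 and 19.7 FPKM with DMSO. Both crotonate libraries lay above the acetate and DMSO libraries, and acetate and DMSO overlapped. Mt2 had 61.4 and 110.5 FPKM with crotonate, 126.2 and 54.0 FPKM with acetate, and 57.2 and 34.1 FPKM with DMSO, so crotonate lay above DMSO and overlapped with acetate. The log2 difference of crotonate against DMSO was 1.60 ± 0.49 (SE) for Mt1 and 0.88 ± 0.49 for Mt2. Both rest on few libraries: without DMSO library 2 the Mt1 difference was 0.84 and without DMSO library 1 it was 2.36, and without crotonate library 2 the Mt2 difference was 0.46. For acetate against DMSO Mt1 differed by 0.72, and by -0.040 without DMSO library 2 and 1.48 without DMSO library 1. Mt2 differed by 0.89 ± 0.49 (SE) for acetate against DMSO, with overlapping libraries, and by 0.28 without acetate library 1. Summed 2-cell markers were 241 to 245 FPKM with crotonate, 167 to 224 FPKM with acetate and 104 to 205 FPKM with DMSO. In the same order oocyte marker sums were 1039 to 1254, 1317 to 2112 and 1606 to 1914 FPKM. Blood marker sums were 9.5 to 13.8, 2.67 to 4.72 and 3.81 to 4.83 FPKM. Mitochondrial transcripts took 16.7 to 19.8%, 11.9 to 20.6% and 12.2 to 13.4% of FPKM. The part of these in the differences was not tested.

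Mtf1 had 134.2 and 137.6 FPKM with crotonate, 159.3 and 182.2 FPKM with acetate, and 185.2 and 210.9 FPKM with DMSO, with no overlap between any of the groups and a log2 difference of -0.54 ± 0.26 (SE) for crotonate against DMSO. Slc30a1 was low throughout, at 1.39 and 1.01 FPKM with crotonate, 0.32 and 1.09 FPKM with acetate, and 0.75 and 0.85 FPKM with DMSO. Its log2 difference for crotonate against DMSO was 0.28 ± 0.36 (SE), with no overlap. Outside crotonate only acetate library 2 reached 1 FPKM. Slc30a1 thus passed the filter on low values only with the crotonate libraries, where it is highest, and nothing is read from its lack of overlap. Slc39a6 had 22.8 and 16.9 FPKM with crotonate, 8.99 and 37.5 FPKM with acetate, and 35.0 and 37.0 FPKM with DMSO. Its crotonate libraries lay below DMSO (log2 difference -0.84 ± 0.58, SE), while its acetate libraries spanned both other groups. Slc39a10 had 118.7 and 114.0 FPKM with crotonate, 40.7 and 101.5 FPKM with acetate, and 121.0 and 115.1 FPKM with DMSO. The lower acetate values of both importers came mainly from acetate library 1: without it the log2 difference of acetate against DMSO was 0.059 for Slc39a6, against -0.91 with it, and -0.22 for Slc39a10, against -0.86 with it. Groups did not overlap for 5 of the 6 genes in crotonate against DMSO (57.6% of all genes tested), Slc30a1 being among the 5. The same held for 2 in acetate against DMSO (34.8%) and 3 in crotonate against acetate (45.5%). Crotonate and acetate share their DMSO libraries.

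Metallothionein levels of the early 2-cell control groups lay far apart between the experiments. Mt1 averaged 38.9 ± 27.3 FPKM with DMSO (SD, n = 2) and 705 ± 454 FPKM in siCon E2C (SD, n = 3), and Mt2 45.7 ± 16.3 FPKM with DMSO and 425 ± 139 FPKM in siCon E2C. The siEchs1 E2C means of 87.0 FPKM for Mt1 and 57.1 FPKM for Mt2 lay nearer to the DMSO values. Marker sums of the controls differed too. Blood markers summed to 59.7 to 77.8 FPKM in siCon E2C and 3.81 to 4.83 FPKM with DMSO, beside 2.74 to 10.5 FPKM in siEchs1 E2C. For 2-cell markers these were 869 to 1026, 104 to 205 and 221 to 401 FPKM. For oocyte markers they were 1015 to 1303, 1606 to 1914 and 1352 to 10436 FPKM. Their part in the metallothionein levels was not tested. The experiments were deposited as separate sets of files, so these levels are set side by side without a test.

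Over the 12 siRNA libraries, which fall into 4 groups, the genes most like each member were found by Pearson correlation of log2(FPKM + 1) among 8579 genes with a mean of at least 5 FPKM. Mt1 was most like Tmem56 (r = 0.985), Dnajb9 (0.976), an endoplasmic reticulum co-chaperone, and Pramel4 (0.970). Mt2 was most like Mak16 (0.990), a ribosome biogenesis factor, Atxn3 (0.987), a deubiquitinase, and Gcsh (0.980), a protein of the glycine cleavage system. For Slc30a1 these were Zc3h12a (0.981), an RNase that degrades cytokine mRNAs, Itpkc (0.980) and Palm (0.978). Slc39a6 was most like Fbh1 (0.958), a DNA helicase, Rad50 (0.952), of the DNA break repair complex, and Lman1 (0.951), a cargo receptor. Slc39a10 was most like Nuf2 (0.948), a kinetochore protein, Dnajb4 (0.943) and Chek1 (0.937), a checkpoint kinase, and Mtf1 like Zfp931 (0.924), Zc3h8 (0.921) and Arpp19 (0.921), which restrains a phosphatase at mitosis. Between members, r was 0.965 for Mt1 and Mt2, 0.585 for Mt1 and Slc30a1, -0.696 for Mt1 and Mtf1, and -0.831 for Slc30a1 and Slc39a10. All these values share the same libraries and the same 4 groups.

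The other genes of zinc transport were tested with limma over all genes. The list held every remaining metallothionein and SLC30 or SLC39 gene, 23 in all, of which 15 passed the filter in the siRNA experiment and 12 in the treatment experiment. At L2C 4 rose and 4 fell in siEchs1 (adjusted p under 0.05), where 48.8% of all genes were called, and the median of the 15 was -0.05 beside -0.08 for all genes. Slc39a1 (ZIP1, a zinc importer) fell to 6.10 ± 3.43 FPKM in siEchs1 L2C, against 47.1 ± 17.9 FPKM in siCon L2C (SD, n = 3 each; log2 difference -2.82, limma adjusted p = 0.00026). Slc39a4 (ZIP4, the importer of the gut) fell to 2.00 ± 1.55 FPKM in siEchs1 L2C, against 53.9 ± 58.6 FPKM in siCon L2C (log2 difference -3.73, adjusted p = 0.000736). Slc30a3 (ZnT3, which loads zinc into synaptic vesicles) rose to 353 ± 99.2 FPKM in siEchs1 L2C, against 62.7 ± 21.5 FPKM in siCon L2C (log2 difference 2.50, adjusted p = 0.000859). Slc39a3 (ZIP3, an importer) had 2.93 ± 0.777 FPKM in siEchs1 L2C and 0.70 ± 0.0346 FPKM in siCon L2C. It passed the filter on low values only through the 3 siEchs1 L2C libraries, the group where it is high, so nothing is read from its test, and without it 3 of 14 genes rose and 4 fell. The 4 others called were Slc30a2 and Slc30a6, which fell, and Slc30a4 and Slc30a7, which rose. Without siEchs1 L2C library 3 the count was 3 higher and 2 lower.

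At E2C 2 of the 15 rose in siEchs1 and 0 fell, where 20.3% of all genes were called (median 0.21 beside 0.15 for all genes). Slc30a3 had 103.4 ± 56.0 FPKM in siEchs1 E2C and 20.7 ± 1.17 FPKM in siCon E2C (SD, n = 3 each; log2 difference 2.08, limma adjusted p = 0.00874), and lost the call when only the compared groups were fitted (adjusted p = 0.0573). Slc30a4 (ZnT4, which moves zinc into vesicles) had 6.6 ± 1.19 FPKM in siEchs1 E2C and 1.60 ± 0.154 FPKM in siCon E2C (log2 difference 1.54, adjusted p = 0.0368), a call lost under 10 of 20 alternatives. At an unadjusted p under 0.05 there were 5 genes. Without siEchs1 E2C library 3 the count was 3 higher and 1 lower, and it was 1 without siEchs1 E2C library 2, any 1 siCon E2C library, or siEchs1 L2C library 2 or 3. The siEchs1 effect differed between L2C and E2C for 3 of the 15, Slc30a2, Slc39a1 and Slc39a3 (2 of 14 without Slc39a3), where 17.2% of all genes did (medians -0.33 and -0.21), and leaving out single libraries gave counts of 0 to 3.

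In siCon embryos 8 of the 15 rose and 1 fell at L2C relative to E2C, where 50.2% of all genes were called, with a median of 1.34 beside 0.51 for all genes. After quantile normalization, which set the median of all genes to -0.01, 3 rose and 1 fell. Slc30a2 (ZnT2) rose to 21.6 ± 5.17 FPKM at L2C, against 0.753 ± 0.676 FPKM at E2C (SD, n = 3 each; log2 difference 3.73, limma adjusted p = 6.88e-05). Slc39a4 had 53.9 ± 58.6 FPKM at L2C and 1.99 ± 0.832 FPKM at E2C (adjusted p = 0.000702). Slc39a7 (ZIP7, which releases zinc from the endoplasmic reticulum) had 8.23 ± 5.35 FPKM at L2C and 0.243 ± 0.327 FPKM at E2C (adjusted p = 0.000924). Mt4, a metallothionein of stratified epithelia, fell to 15.4 ± 17.5 FPKM at L2C, against 72.9 ± 10.6 FPKM at E2C (log2 difference -2.84, adjusted p = 0.00712). In siEchs1 embryos 3 rose and 0 fell at L2C relative to E2C, where 14.6% of all genes were called (medians 0.72 and 0.23): Slc39a7, Slc30a3 and Slc39a3, the last of which passed the filter only through siEchs1 L2C and without which 2 of 14 rose. That count was 1 without siEchs1 L2C library 1, and 4 higher and 1 lower without siCon L2C library 1 or 3.

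**Figure D5:**
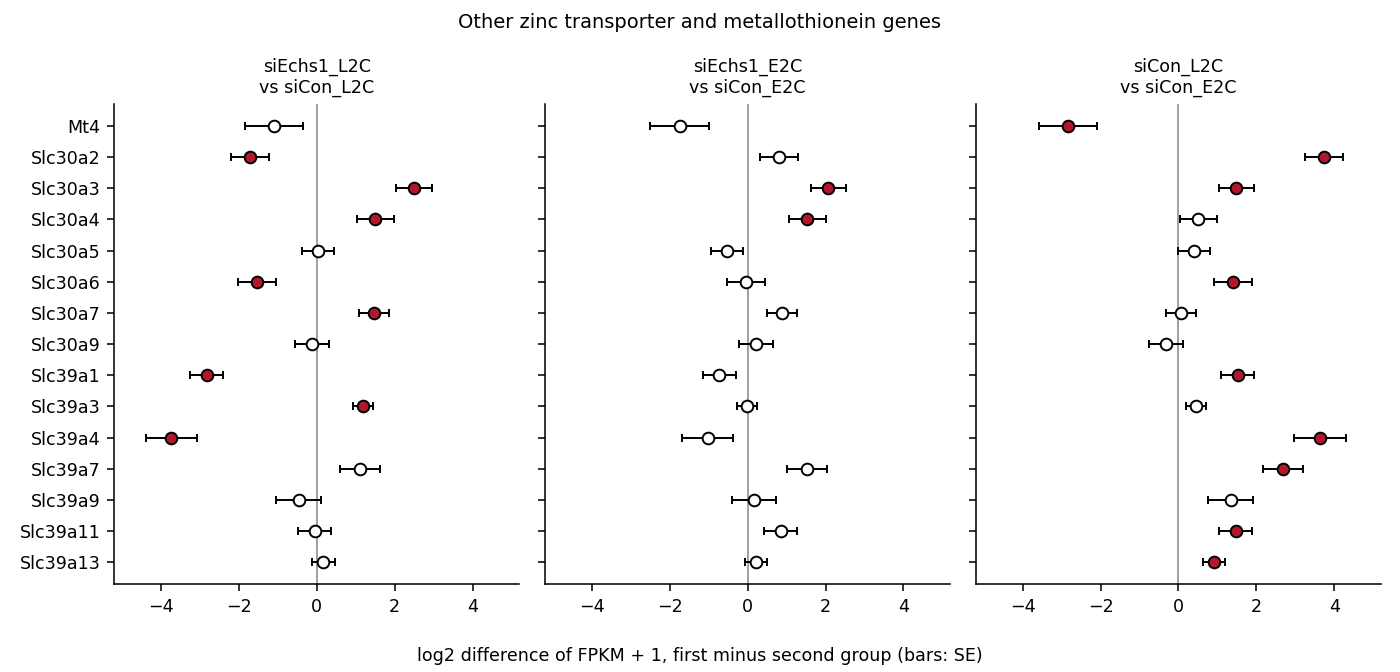
Log2 differences (log2(FPKM + 1) scale, ± SE) of the 15 other zinc genes tested in the siRNA experiment, for siEchs1 against siCon at L2C, siEchs1 against siCon at E2C, and L2C against E2C in siCon; filled points passed an adjusted p of 0.05. Slc39a1 and Slc39a4 lie lowest at L2C, at -2.82 and -3.73, and Slc30a3 lies above 0 at both stages.

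With the treatments limma called 0 of 12 of these genes in each comparison, and 1, 1 and 3 had an unadjusted p under 0.05 for crotonate over DMSO, for acetate over DMSO and for crotonate over acetate. Among all genes 0.529%, 0.0653% and 1.86% were called in the same order. The medians of the 12 were 0.15, -0.08 and 0.21, beside -0.15, -0.08 and -0.09 for all genes. Without acetate library 1 crotonate against acetate had 1 call, lower.

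Genes known to respond to metals or MTF1 outside the members numbered 6, of which 5 were tested: at L2C 3 fell in siEchs1 and 0 rose, with a median of -1.08, where 48.8% of all genes were called with a median of -0.08. After quantile normalization 1 fell. Gclc, which makes the first step of glutathione synthesis, had 3.78 ± 0.978 FPKM in siEchs1 L2C and 9.09 ± 1.58 FPKM in siCon L2C (log2 difference -1.08, limma adjusted p = 0.00988). Ferroportin (Slc40a1) and Ndrg1 were called at adjusted p = 0.0442 each and lost the call under 15 and 13 of 20 alternatives. At E2C limma called 0 of the 5, with 1 at an unadjusted p under 0.05, where 20.3% of all genes were called. In siCon 3 of the 5 rose at L2C relative to E2C, where 50.2% of all genes were called with a median of 0.51: Gclc (log2 difference 2.44, adjusted p = 4.46e-05), Csrp1, a LIM protein (2.82, adjusted p = 0.000497), and Slc40a1 (1.32, adjusted p = 0.0172). Slc40a1 lost the call after quantile normalization (adjusted p = 0.139) and without siCon E2C library 3 (adjusted p = 0.075).

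Factors known to act at metallothionein promoters besides MTF1 numbered 7, all tested: at L2C 3 fell in siEchs1 and 0 rose, where 48.8% of all genes were called, with a median of -0.48 beside -0.08 for all genes. Ep300, a histone acetyltransferase that can also crotonylate, had 2.01 ± 0.618 FPKM in siEchs1 L2C and 12.8 ± 2.34 FPKM in siCon L2C (log2 difference -2.20, limma adjusted p = 0.000427). Sp1, a GC-box factor, had 6.87 ± 0.759 FPKM in siEchs1 L2C and 18.5 ± 3.06 FPKM in siCon L2C (log2 difference -1.30, adjusted p = 0.00364). Nfe2l2, a transcription factor of the oxidative stress response, was called at adjusted p = 0.0497 and lost the call under 15 of 20 alternatives. At E2C 2 of the 7 rose in siEchs1 and 0 fell, where 20.3% of all genes were called. Usf1, an E-box factor, had a log2 difference of 1.48 (limma adjusted p = 0.0142). Stat3, a cytokine-activated factor, had 1.65 (limma adjusted p = 0.0154), and each lost the call under 4 of 20 alternatives. In siCon 4 of the 7 rose at L2C relative to E2C, where 50.2% of all genes were called, and after quantile normalization 2 did, Stat3 being among those lost (adjusted p = 0.057).

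Zinc-binding or divalent-cation proteins of the egg numbered 5, all tested: at L2C 2 rose in siEchs1 and 1 fell, where 48.8% of all genes were called, with a median of 0.31 beside -0.08 for all genes. Astl, whose product ovastacin is a zinc protease of the egg coat and whose RNA is an oocyte transcript, had 417 ± 152 FPKM in siEchs1 L2C and 14.8 ± 5.04 FPKM in siCon L2C (log2 difference 4.72, limma adjusted p = 0.000371). It had 89.2 ± 88.7 FPKM in siEchs1 E2C and 2.23 ± 0.727 FPKM in siCon E2C (log2 difference 4.09, adjusted p = 0.00328). Fbxo43 (Emi2), which needs zinc to hold the egg in meiosis, rose at L2C by 1.93 (adjusted p = 0.00143), and Trpm7, a cation channel, fell by 1.47 (adjusted p = 0.00316) on the log2 scale. The oocyte marker sums given above were higher in siEchs1 L2C, as Astl and Fbxo43 were and Trpm7 was not, and their part in these differences was not tested.

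Copper and iron genes stand beside the zinc genes because metallothioneins also bind copper. Of 11 copper genes tested, 4 rose and 2 fell in siEchs1 at L2C, near the share of 48.8% called among all genes, with a median of -0.38 beside -0.08. Commd1, which acts in copper export, had 254.8 ± 48.8 FPKM in siEchs1 L2C and 9.35 ± 2.07 FPKM in siCon L2C (log2 difference 4.63, limma adjusted p = 0.00033), and Sod1, the copper and zinc superoxide dismutase, 614 ± 19.9 FPKM and 163.3 ± 35.8 FPKM (log2 difference 1.93, adjusted p = 0.000582). Of 15 iron genes tested, 5 rose and 7 fell in siEchs1 at L2C, where 48.8% of all genes were called, with a median of -0.43 beside -0.08. Tfrc, the transferrin receptor, had 6.13 ± 4.86 FPKM in siEchs1 L2C and 97.5 ± 27.1 FPKM in siCon L2C (log2 difference -3.99, adjusted p = 0.000112). Hmox1, heme oxygenase, had 6.55 ± 0.901 FPKM in siEchs1 L2C and 41.7 ± 20.3 FPKM in siCon L2C (log2 difference -2.36, adjusted p = 0.000672). Slc25a28, a mitochondrial iron carrier, had 17.1 ± 10.1 FPKM in siEchs1 L2C and 102.0 ± 3.62 FPKM in siCon L2C (log2 difference -2.68, adjusted p = 0.00058). At E2C, where 20.3% of all genes were called, 3 copper genes rose and 0 fell, with 4 at an unadjusted p under 0.05. Of these calls Commd1, whose libraries overlapped, was lost under 13 of 20 alternatives, Slc31a2, a copper transporter, under 5 and Sod1 under 1. After quantile normalization 1 iron gene rose and 1 fell at E2C, against 3 and 2 without it. The called iron genes included Slc11a2, a divalent metal transporter (log2 difference 2.63, adjusted p = 0.000524), and Tfrc (-2.46, adjusted p = 0.00564). With the treatments limma called 0 genes of these 5 lists, and at an unadjusted p under 0.05 there were 4 copper genes in crotonate against DMSO, 1 in acetate against DMSO, and 3 copper genes and 1 iron gene in crotonate against acetate.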

How the data were processed

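RNA was measured by Smart-seq2 in 18 embryo libraries with paired reads of 150 nt, per the labels. The submitters' processing notes name cutadapt 1.16, STAR and the build mm10. Which quantifier and annotation gave the values is not given in the sources used here. FPKM were deposited, 1 file per library, per the file headers. Depth is unknown: 38.9 to 48.95% of low values lay within 0.15 of a whole number of fragments, so no counts were recovered. Without 108 symbols found more than once and 24 turned into dates, 55098 genes remained; of the treatment files' 55335 identifiers 54486 are in GENCODE vM21. Groups followed the titles; for siEchs1 L2C libraries 2 and 3 the file headers carry each other's number. Pairing by replicate number was not seen in the siRNA experiment. There same-numbered libraries' deviations correlated at -0.10 to 0.11, and differently numbered ones at -0.16 to 0.22. In the treatment experiment same-numbered values were -0.10 to 0.16. With 2 libraries per group differently numbered pairs only repeat these with the opposite sign, so pairing cannot be judged there.

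Values were tested as log2(FPKM + 1) with limma-trend and robust variances (limma 3.58.1, R 4.3.3), two-sided, in genes at 1 FPKM or more in at least 3 of 12 siRNA libraries (17652 genes) or 2 of 6 treatment libraries (13789 genes), with all groups of an experiment in 1 fit and Benjamini-Hochberg adjustment over all genes tested. A gene was called at an adjusted p under 0.05. The fits were tested on simulated data. The members and lists were chosen with earlier results of these data known. Genes named were the members, Echs1, up to 4 called genes with the smallest adjusted p per comparison of the other zinc genes, up to 3 of each other list, and the 3 genes most like each member, without predicted genes and pseudogenes; Slc30a6 and Slc30a7 were named after their values were seen. Alternatives were quantile normalization, rescaling without mitochondrial and ribosomal RNA, a pseudocount of 0.1, no filter, no trend, a replicate block, the compared groups alone, and leaving out each library.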

Additional observations from a re-analysis of the deposited data

Results flagged for a closer look

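For 7 genes of the zinc, metal-response, promoter-factor and iron lists the siEchs1 effect at L2C differed from that at E2C by limma's test of the difference itself. Called were 3 of 15 other zinc genes (2 of 14 without Slc39a3), 1 of 5 metal-response genes, 1 of 7 promoter factors and 2 of 15 iron genes. Of 11 copper genes and 5 egg genes 0 were called. Among all genes tested 17.2% were called, so nothing particular to these lists is read from the counts. The differences (log2 effect at L2C minus that at E2C) follow with their adjusted p.

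Hmox1 differed by -2.53 (limma adjusted p = 0.0151), with effects of -2.36 at L2C and 0.18 at E2C, and Gclc by -1.77 (adjusted p = 0.0168), with effects of -1.08 at L2C and 0.69 at E2C. These 2 calls held under all 19 alternatives, with adjusted p of 0.0053 to 0.0403 for Hmox1 and 0.00841 to 0.0493 for Gclc.

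Slc30a2 differed by -2.53 (limma adjusted p = 0.0263; effects of -1.72 at L2C and 0.81 at E2C) and lost the call under 8 of 19 alternatives, with adjusted p of 0.00814 to 0.0744 over all. Slc39a1 differed by -2.09 (adjusted p = 0.0314; -2.82 at L2C and -0.73 at E2C) and lost it under 10, with adjusted p of 0.0107 to 0.0834. Slc39a3 differed by 1.21 (adjusted p = 0.0391; 1.19 at L2C and -0.02 at E2C) and lost it under 14, with adjusted p of 0.0283 to 0.249; it passed the filter on low values only through siEchs1 L2C, so nothing is read from its test. Sp1 differed by -1.59 (adjusted p = 0.0251; -1.30 at L2C and 0.29 at E2C) and lost it under 6, with adjusted p of 0.0207 to 0.0667. Slc25a28 differed by -2.34 (adjusted p = 0.0286; -2.68 at L2C and -0.34 at E2C) and lost it under 10, with adjusted p of 0.0126 to 0.0762. The lost calls include, for all 5, the fit without siEchs1 L2C library 3 and the fit without siCon E2C library 3, where adjusted p lay between 0.0529 and 0.0834.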

How the results depend on the processing

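Over 828 recomputations of the 48 differences of the 6 genes, 803 moved by less than the spread between replicates, 23 moved further and 2 reversed a difference larger than that spread, both in acetate against DMSO: without single libraries Mt1 ranged over -0.040 (without DMSO replicate 2) to 1.48 and Slc39a6 over -1.89 to 0.059 (without acetate replicate 1). Counting differences smaller than the spread too, the sign changed in 24 recomputations of 13 differences. Several settings keep the group means: no filter, no trend, a replicate block, the compared groups alone, and leaving out a library of another group. Under these a log2 difference could not move, so the count of 803 overstates how firm the differences are. Of 1313 recomputations of the 66 named results of other genes, 1134 kept the call, 179 lost it and 0 changed sign. Under the same settings their sign could not change. Depth is unknown, so no limit of detection can be given, and the cause of the shifts below was not tested.

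For all genes at E2C, 3578 were called in siEchs1 against siCon (1934 higher, 1644 lower), 1353 with the compared groups only, 2790 higher and 1221 lower after rescaling without mitochondrial and ribosomal RNA, and 1889 to 6496 when single libraries were left out. At L2C the count of 8611 became 6896 to 10308. The difference between the effects, with 3039 genes (997 higher, 2042 lower), gave 1794 with a pseudocount of 0.1, 1869 with no filter, 1600 higher and 1558 lower after quantile normalization, and 1291 to 4061 without single libraries. L2C against E2C in siCon, with 6326 higher and 2544 lower, gave 4192 and 4243 after quantile normalization and 7302 to 10532 in all without single libraries. In siEchs1 it gave 2572 (2090 higher, 482 lower), 1075 higher and 785 lower after quantile normalization, 1704 with no filter, 566 with the compared groups only, and 1174 to 3453 without single libraries. Crotonate against DMSO gave 73 (29 higher, 44 lower), 30 and 30 after quantile normalization, 36 rescaled, 31 with the pseudocount, 9 with no filter, 41 with no trend, 1147 with the compared groups only, and 8 to 1143 without single libraries. Acetate against DMSO gave 9, 5 after quantile normalization, 0 with no filter and with the compared groups only, and 1 to 904 without single libraries. Crotonate against acetate gave 257 (141 higher, 116 lower), 162 rescaled (115 higher, 47 lower), 162 with the pseudocount, 9 with no filter, 151 with no trend, 73 with the compared groups only, and 9 to 1425 without single libraries.

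For the other zinc genes, the 2 calls at E2C became 1 with no filter, with the replicate block and with the compared groups only, and 1 to 4 without single libraries. The 8 calls at L2C became 5 to 9 without single libraries. The 3 for the difference between the effects became 1 with the pseudocount, 0 with no filter and 0 to 3 without single libraries. The 9 for L2C against E2C in siCon became 4 after quantile normalization and 7 to 10 without single libraries. The 3 in siEchs1 became 1 to 5, and the 0 in crotonate against acetate 0 to 1, without single libraries. With the replicate number as a block the counts over all genes were 3169 at E2C, 8306 at L2C, 2455 for the difference, 8585 and 2213 for the stages in siCon and siEchs1, and 69, 12 and 173 for the treatments; it changed no other count of zinc genes.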
